A study of Mus musculus with 4 samples.

Results

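Mucins are long, heavily O-glycosylated glycoproteins of epithelial surfaces. Gel-forming mucins are secreted and assemble into the polymers of mucus, whereas membrane mucins stay anchored in the apical membrane, where they extend above the cell surface and can pass signals into the cell. In mouse airways Muc5b is the main secreted mucin of the resting epithelium and Muc5ac is the mucin typically induced in goblet cells, while Muc1 and Muc4 are membrane mucins of lung epithelium. Muc6 is best known as a mucin of the gastric glands.

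The mucin genes described here are Muc5ac, Muc5b and Muc6 (gel-forming), Muc1, Muc4, Muc13, Muc15, Muc16 and Muc20 (membrane-bound), and Dpcr1, the older symbol of Mucl3, a mucin-like gene of the MHC region. These 10 genes were chosen by symbol with the levels and group differences in these same samples already known. All values of the 10 genes are therefore descriptions, and none is offered as a test of the family. The count tables list 24391 genes, among them 9 of the 10. Muc16 was not analysed here. The filter on low counts kept 16001 genes, including 8 of the 9, and Muc15 did not pass it.

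The study profiled RNA from 4 mouse lung tumour samples in 2 groups of 2. The K-Ras group carried K-Ras LSL-G12D, an oncogenic K-Ras allele kept silent by a floxed stop cassette until Cre removes it. The K-Ras Mll4-/- group carried the same allele together with Mll4 fl/fl, both copies of Mll4 (Kmt2d) being floxed. The Mll4 protein methylates histone H3 at lysine 4, above all at enhancers. The Cre driver, the strain and the age of the mice are not given in the sources used here. All 4 samples were dissociated tumours depleted of CD45-positive cells, so each can hold tumour cells, normal lung epithelium and stroma. The labels do not say whether replicates came from separate mice, and p-values then measure only the spread between these samples.

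Reads assigned to genes ranged from 26683033 to 36677987 per sample, and 3 reads corresponded to between 0.0830 and 0.114 CPM (counts scaled to library size with TMM factors), a floor that covers counting error only. Kmt2d was at 395 and 526 CPM in the K-Ras samples and at 367 and 317 CPM in the K-Ras Mll4-/- samples. The group difference of -0.43 on the log2 scale (SE 0.21) did not pass (adjusted p = 0.302 by edgeR), and counts per whole gene do not show the loss of single exons. Ptprc, the gene of CD45, was detected in all 4 samples at 143 to 274 CPM. Alveolar type 2 markers were abundant in every sample, with a summed level of 22901 to 34892 CPM over 10 genes. K-Ras replicate 2 stood apart through its ciliated-cell and club-cell markers. Its 10 ciliated-cell markers summed to 992 CPM against 176 CPM in K-Ras replicate 1 and 99.1 and 106 CPM in the K-Ras Mll4-/- samples.

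The shared feature of the family is a coding sequence rich in codons for serine, threonine and proline, the residues of the glycosylated mucin domain. In the GENCODE M21 coding sequences (GRCm38), these codons made up between 31.2% (Muc5ac) and 44.8% (Muc4) of the 9 listed genes, against a median of 18.7% over 21175 genes. Dpcr1, at 34.0%, lay above 99.1% of all genes. The 30 codons richest in these residues are shown for Dpcr1 (codons 297 to 326, chromosome 17) and Muc1 (codons 155 to 184, chromosome 3), the mucin with the largest group difference and the most abundant mucin, with codons for serine, threonine and proline in capitals. They are 18 of 30 codons in Dpcr1 and 21 of 30 in Muc1.

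Dpcr1: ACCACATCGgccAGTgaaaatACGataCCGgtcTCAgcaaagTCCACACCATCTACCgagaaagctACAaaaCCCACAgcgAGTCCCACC
Muc1: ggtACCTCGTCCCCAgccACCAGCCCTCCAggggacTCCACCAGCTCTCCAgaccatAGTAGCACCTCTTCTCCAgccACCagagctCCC

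Many mucin domains are tandem repeats, and reads that align to more than 1 place were tallied apart and are not in the gene counts. Of the repeats found, the one filling most of its coding sequence was in Muc13, where units of 81 bases filled 36.5% of it. In Muc5ac, units of 48 bases ran on for 24.8 copies. The adjacent units with the most identical bases are shown, with bases identical between the 2 units in capitals. The Muc13 units begin at codon 40 and are the same at all 81 bases, and the Muc5ac units begin at codon 1900 and share 47 of 48 bases.

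Muc13 unit 1: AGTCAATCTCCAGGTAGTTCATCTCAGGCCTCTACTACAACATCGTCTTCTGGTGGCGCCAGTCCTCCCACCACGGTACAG
Muc13 unit 2: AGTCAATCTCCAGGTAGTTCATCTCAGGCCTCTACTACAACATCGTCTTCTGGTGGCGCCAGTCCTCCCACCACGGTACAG
Muc5ac unit 1: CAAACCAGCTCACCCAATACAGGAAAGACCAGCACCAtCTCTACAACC
Muc5ac unit 2: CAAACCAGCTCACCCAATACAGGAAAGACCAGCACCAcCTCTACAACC

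Measured over windows of 50 bases, a length set here because the read length is not given in the sources used here, 23.2% of the Muc5ac transcript, 21.9% of Muc5b and 14.2% of Muc13 recurred within the same transcript. Reads from such stretches can be missing from the counts, and how many are was not tested. In Dpcr1 and Muc1, 98.6% and 98.7% of windows occurred once in all annotated transcripts. The tandem repeat search took units of 9 to 300 bases with at least 80% identity to the next copy. It found none in the coding sequences of Dpcr1, Muc5b, Muc6 and Muc15. Such a result does not exclude recurring sequence, as the 21.9% for Muc5b shows.

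Dpcr1 was the mucin gene with the largest group difference. It had 63 and 115 reads in the K-Ras samples against 3656 and 7571 in the K-Ras Mll4-/- samples. Its level was 2.06 and 3.18 CPM in K-Ras tumours (mean 2.62 ± 0.793, SD, n = 2) and 139 and 235 CPM in K-Ras Mll4-/- tumours (mean 187 ± 67.6, SD, n = 2), a 71.4-fold difference of means. Both K-Ras Mll4-/- samples were far above both K-Ras samples. Within the groups, replicate 2 was 1.54 times replicate 1 in K-Ras and 1.69 times in K-Ras Mll4-/- tumours. On the log2 scale the difference was 6.15 (SE 0.42), and it lay between 5.72 and 6.49 when single samples were left out.

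With edgeR's quasi-likelihood test and a limit of 0.05 on the adjusted p, 0 of the listed mucin genes and 0.0375% of all tested genes were called. At an unadjusted p under 0.05 there were 2 (Muc20 and Dpcr1), where 21.8% of all genes passed. DESeq2 called the same 2 genes, Dpcr1 higher and Muc20 lower, and called 10.6% of all genes. The edgeR likelihood ratio test also called 2 and limma-voom 0. The members' groups did not overlap for 2 of 9 genes, against 58.3% of all tested genes. Since the members were picked with this contrast known, nothing is read from these counts. The median log2 fold change of the 8 tested mucin genes was -0.52, beside -0.01 over all tested genes, and it turned to 0.045 without K-Ras replicate 2.

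**Figure D1:**
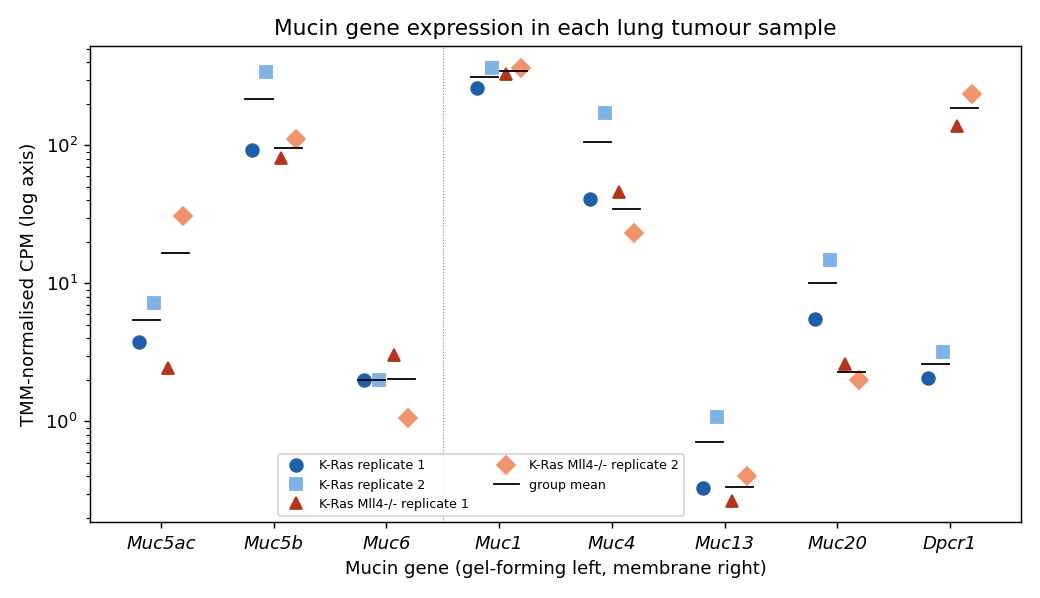
TMM-normalised CPM of the 8 tested mucin genes on a log axis, 1 symbol per sample, with black lines for group means. Dpcr1 separates the groups, at 2.06 and 3.18 CPM against 139 and 235 CPM, and K-Ras replicate 2 is the highest sample for Muc4, Muc5b, Muc13 and Muc20.

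Genomic neighbours of Dpcr1 did not show a difference of this size. In RefSeq's GRCm38.p6 annotation, used here only for gene order because the submitters' processing notes name the build mm9, the nearest tested neighbours are Cdsn and Sfta2. These and the further neighbours of Dpcr1 are named after their values were seen. The log2 fold change was -0.54 (SE 0.34) for Cdsn, a corneodesmosome gene, and -0.58 (SE 0.32) for Sfta2, a surfactant-associated gene. Vars2 and Gtf2h4, the next genes, were at 0.18 (SE 0.19) and 0.03 (SE 0.20). Gm9573, which lies next to Dpcr1, had 1 read in 1 K-Ras Mll4-/- sample and 0 in the other samples.

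The sequence upstream of the Dpcr1 start is shown beside that of Muc1, since these genes were the 2 most abundant mucins per length in K-Ras Mll4-/- tumours and only Dpcr1 separated the groups. The windows are the 250 bases before the RefSeq start (GRCm38.p6), Dpcr1 at chr17:35643696-35643945 on the minus strand and Muc1 at chr3:89228806-89229055 on the plus strand. Matches to 7 motifs, searched on both strands, are in capitals.

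Dpcr1: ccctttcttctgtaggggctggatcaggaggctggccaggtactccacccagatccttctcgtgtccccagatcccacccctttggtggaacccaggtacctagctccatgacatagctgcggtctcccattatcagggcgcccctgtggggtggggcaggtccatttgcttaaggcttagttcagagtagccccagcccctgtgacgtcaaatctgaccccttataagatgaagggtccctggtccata
Muc1: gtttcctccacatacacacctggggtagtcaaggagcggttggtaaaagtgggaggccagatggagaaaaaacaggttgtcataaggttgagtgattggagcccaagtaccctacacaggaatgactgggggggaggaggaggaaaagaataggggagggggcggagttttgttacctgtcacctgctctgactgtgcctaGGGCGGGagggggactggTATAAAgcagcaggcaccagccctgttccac

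In the Muc1 window the TATA letters TATAAA stood at position -31 from the start, and 12.4% of 32851 promoter windows hold them at any position. The SP/KLF letters GGGCGGG stood at -49 in Muc1, and 23.4% of all windows hold them. None of the 7 motifs was found in the Dpcr1 window. Only these letters were searched, so near matches, such as TATAAG in the Dpcr1 window, were not counted. Among the other mucin genes with a RefSeq window, Muc4 held the TATA letters at -36. Muc6 held the NKX2-1 letters CAAGTG at -65, as 11.6% of all windows do. Muc20 held the FOXA letters TGTTTAC at -248, on the other strand, as 3.17% do. Both Muc13 windows held the AP-1 letters TGANTCA, at -61 and -179, as 6.75% do, and 1 of them held the NKX2-1 letters at -148. The E-box letters CACGTG are in 6.02% of all windows and in no mucin window. The SOX letters ATTGTTT are in 3.77% of all windows and likewise in no mucin window. No motif was common to all 6 genes with a window.

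Muc1, whose product is a membrane mucin of alveolar and airway epithelium, was the most abundant mucin in every sample. Its level was 262 and 364 CPM in K-Ras tumours (mean 313 ± 71.6, SD, n = 2) and 329 and 367 CPM in K-Ras Mll4-/- tumours (mean 348 ± 26.5, SD, n = 2). The groups overlapped, and the log2 fold change of 0.15 (SE 0.22) was smaller than its error. It was -0.060 without K-Ras replicate 1. Per kilobase of the longest transcript, the Muc1 level was 140 ± 31.9 CPM in the K-Ras group, beside 155 ± 11.8 CPM in the K-Ras Mll4-/- group (SD, n = 2 each).

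Per kilobase, the order of mucins below Muc1 differed between the groups. By rank, Muc5b was 2 in both K-Ras samples, Muc4 was 3, Muc20 was 4 and Dpcr1 was 5. In both K-Ras Mll4-/- samples Dpcr1 was 2 and Muc5b was 3. Muc5b and Muc4 in K-Ras tumours were at 14.5 ± 11.8 and 9.46 ± 8.21 CPM per kilobase (SD, n = 2 each). Within the samples Muc5b was above Muc4, at 6.16 against 3.65 in K-Ras replicate 1 and 22.9 against 15.3 in replicate 2. That order depended on the transcript length used. Muc13 and Muc6, at 0.237 ± 0.179 and 0.228 ± 0.000199, changed order between the K-Ras samples. Dpcr1 was at 1.00 ± 0.304 CPM per kilobase in K-Ras and 71.6 ± 25.9 in K-Ras Mll4-/- tumours (SD, n = 2 each). With the median instead of the longest transcript length, Muc4 came to 84.1 ± 73.0 and 27.2 ± 12.7 CPM per kilobase in K-Ras and K-Ras Mll4-/- tumours and ranked above Muc5b in every sample, while Dpcr1 again ranked 5 in both K-Ras and 2 in both K-Ras Mll4-/- samples.

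Dpcr1 made up 0.608% and 0.589% of the summed CPM per kilobase of the 9 mucins in the K-Ras samples and 25.3% and 33.7% in the K-Ras Mll4-/- samples. These shares depend on the transcript length, and with the median length they were 0.139% and 0.136% against 7.06% and 10.5%. Muc1 made up 90.1% and 78.4% in the K-Ras samples, then 69.6% and 61.3% in the K-Ras Mll4-/- samples. With the median length the Muc1 shares were 92.6% and 81.4% against 87.2% and 85.9%, and the groups overlapped. The 3 gel-forming mucins together made up 5.19% and 11.5% in the K-Ras samples and 2.84% and 3.93% in the K-Ras Mll4-/- samples. With the median length these were 1.20% and 2.68% against 0.801% and 1.32%, again with overlap. Dpcr1 is part of the total of every share, so a higher Dpcr1 level lowers the shares of the others. As levels with the longest transcript, the gel-forming sums overlapped, at 6.73 and 23.8 CPM per kilobase in K-Ras against 5.98 and 10.5 in K-Ras Mll4-/- samples. Muc1 also overlapped, at 117 and 162 against 147 and 164. The summed level of all 9 was 130 and 207 CPM per kilobase in K-Ras and 211 and 267 in K-Ras Mll4-/- tumours. Without Dpcr1 it was 129 and 206 against 158 and 177, and the groups overlapped. With the median length the sums of all 9 overlapped too, at 567 and 894 against 755 and 853.

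**Figure D2:**
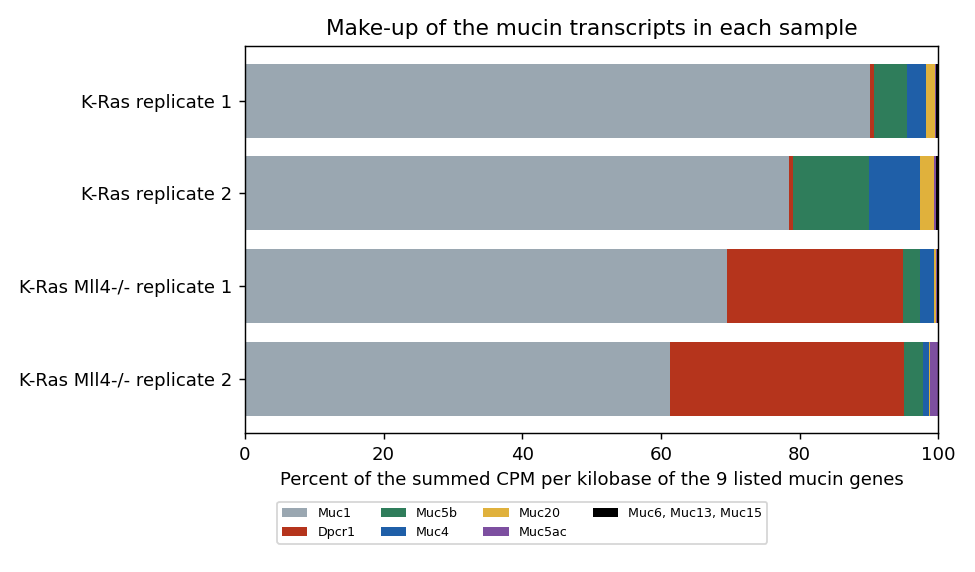
Share of each mucin gene in the summed CPM per kilobase of the 9 listed mucin genes, 1 bar per sample, with the longest transcript length, on an axis from 0 to 100 percent. Dpcr1 takes 25.3% and 33.7% of the K-Ras Mll4-/- bars and under 1 percent of the K-Ras bars.

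Muc4 and Muc20 are membrane mucin genes that lie side by side on chromosome 16, on opposite strands, and overlap in the RefSeq annotation. Muc4 binds the receptor ErbB2, and Muc20 associates with the receptor Met. Muc4 was at 41.2 CPM in K-Ras replicate 1 and 172 CPM in K-Ras replicate 2, against 45.9 and 23.1 CPM in the K-Ras Mll4-/- samples. The groups overlapped, since K-Ras replicate 1 lay between the K-Ras Mll4-/- samples. It differed by -1.63 on the log2 scale (SE 0.77), or by -0.27 without K-Ras replicate 2.

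Muc20 was at 5.53 and 14.8 CPM in the K-Ras samples, beside 2.59 and 1.99 CPM in the K-Ras Mll4-/- samples. Both K-Ras samples were above both K-Ras Mll4-/- samples, by 4.44-fold between the means. The log2 difference was -2.15 (SE 0.56), and -1.29 without K-Ras replicate 2. Of the Muc20 transcript, 13.3% of windows were shared with Muc4 transcripts, and the strand setting of the counting is not given in the sources used here, so reads in that overlap cannot be assigned with certainty to one gene. Gm933, the next gene after Muc20 and named after its values were seen, had a log2 fold change of -1.72 (SE 0.99). Tfrc, the transferrin receptor gene 3 genes away on the other side of Muc4, was at 0.46 (SE 0.12).

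Muc13, a membrane mucin best known from intestinal epithelium, was near the detection limit, with 10 and 39 reads in the K-Ras samples and 7 and 13 in the K-Ras Mll4-/- samples. Its level of 0.327 and 1.08 CPM overlapped with 0.267 and 0.403 CPM. In log2 terms Muc13 differed by -1.06 (SE 0.74), and by 0.034 without K-Ras replicate 2. Muc15 had 1 read in 1 K-Ras sample and 0 in the other 3 samples, which is below the floor of 3 reads, so no fold is given.

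Muc5b, the main gel-forming mucin here, was at 92.1 and 342 CPM in the K-Ras samples, beside 81.0 and 112 CPM in the K-Ras Mll4-/- samples. K-Ras replicate 2 was 3.71 times K-Ras replicate 1, and the other 3 samples lay within a narrow range, with overlapping groups. This gave a Muc5b difference of -1.17 in log2 units (SE 0.65), and 0.055 without K-Ras replicate 2.

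K-Ras replicate 2 was also the highest sample for the summed ciliated and club-cell markers, though not for other airway lists. The 5 basal markers summed to 2.88 and 9.05 CPM in the K-Ras samples and 30.1 and 126 CPM in the K-Ras Mll4-/- samples. The 8 submucosal gland markers summed to 159 and 789 CPM in K-Ras and 2165 and 1071 CPM in K-Ras Mll4-/- samples. Dmbt1 alone made up 1844 and 513 CPM of the latter. Of the other submucosal gland markers, named after their values were seen, Bpifa1, Bpifb1, Pigr and Azgp1 were highest in K-Ras replicate 2. Lipf was not, and Ltf was at 512 CPM there against 521 CPM in K-Ras Mll4-/- replicate 2. Between the K-Ras replicates, the second was 5.63 times the first for the summed ciliated markers and 3.85 times for the 8 club-cell markers. For the submucosal gland, basal and goblet sums it was 4.98, 3.14 and 1.14 times. The mucin ratios were 4.18 for Muc4, 3.71 for Muc5b, 3.30 for Muc13 and 2.67 for Muc20. These mucin ratios lay above those of 95.1% to 97.8% of tested genes. Muc5ac (1.91 times), Dpcr1 (1.54 times) and Muc1 (1.39 times) lay above 91.1%, 85.6% and 81.2% of them, and Muc6 (0.999 times) above 47.6%. Of 10 ciliated markers, 9 were lower in both K-Ras Mll4-/- samples than in both K-Ras samples, as were 28.5% of all tested genes. None of the 10 was at 0. Club markers summed to 1109 and 4275 CPM in K-Ras and 1198 and 1332 CPM in K-Ras Mll4-/- tumours, with 1 of 8 lower in both. Foxj1, the regulator of motile cilia, was at 27.8 and 222 CPM in the K-Ras samples and at 12.8 and 16.5 CPM in the K-Ras Mll4-/- samples. Scgb1a1, the club-cell secretoglobin, was at 576 and 2995 CPM and at 566 and 439 CPM. Without K-Ras replicate 2 the ciliated markers had a median log2 difference of -0.79 and the club markers one of 0.42. The part of airway cells in the Muc4, Muc5b, Muc13 and Muc20 values was not tested, and in bulk samples fewer cells of a type cannot be told apart from less RNA per cell.

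**Figure D3:**
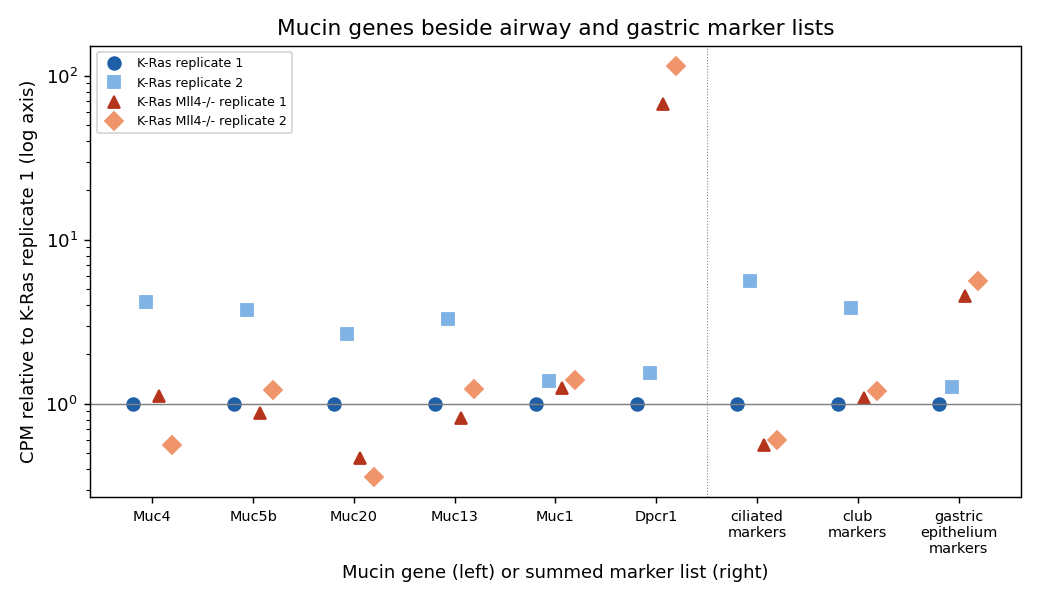
CPM of 6 mucin genes and summed CPM of 3 marker lists, each divided by its value in K-Ras replicate 1, on a log axis with 1 symbol per sample. K-Ras replicate 2 is high for Muc4 (4.18), Muc5b (3.71), ciliated markers (5.63) and club markers (3.85), and both K-Ras Mll4-/- samples are high for Dpcr1 and the gastric markers.

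Of the tested mucin genes, Muc5ac differed most between the K-Ras Mll4-/- replicates. Its level was 2.44 CPM in the first and 30.7 CPM in the second, a ratio of 12.6 that lay above those of 99.9% of tested genes, against 3.76 and 7.17 CPM in the K-Ras samples. One K-Ras Mll4-/- sample was below and the other above both K-Ras samples. The log2 fold change of 1.60 (SE 1.17) turned to -1.17 without K-Ras Mll4-/- replicate 2. Markers of other cell types were mixed between these replicates. Of the 5 basal-cell markers, Trp63, the p63 gene, was at 18.5 CPM in replicate 1 and 88.6 CPM in replicate 2, and the keratin gene Krt14 at 7.05 and 34.7 CPM. The other 3 (Krt5, Krt15 and Ngfr) were lower in replicate 2 and summed to 4.57 and 2.64 CPM. Of the 8 listed goblet and mucous markers, Tff2 was at 9.83 and 40.1 CPM, and the other 7 summed to 11.8 and 10.5 CPM. The part of these cells in the Muc5ac value was not tested.

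Muc6 was low in all samples, at 1.99 and 1.99 CPM in the K-Ras samples, beside 3.01 and 1.05 CPM in the K-Ras Mll4-/- samples. Here K-Ras Mll4-/- replicate 1 was 2.85 times replicate 2, the opposite order to Muc5ac. The Muc6 difference was 0.02 in log2 units (SE 0.58), and its sign varied with the scaling, being -0.030 with total counts.

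**Figure D4:**
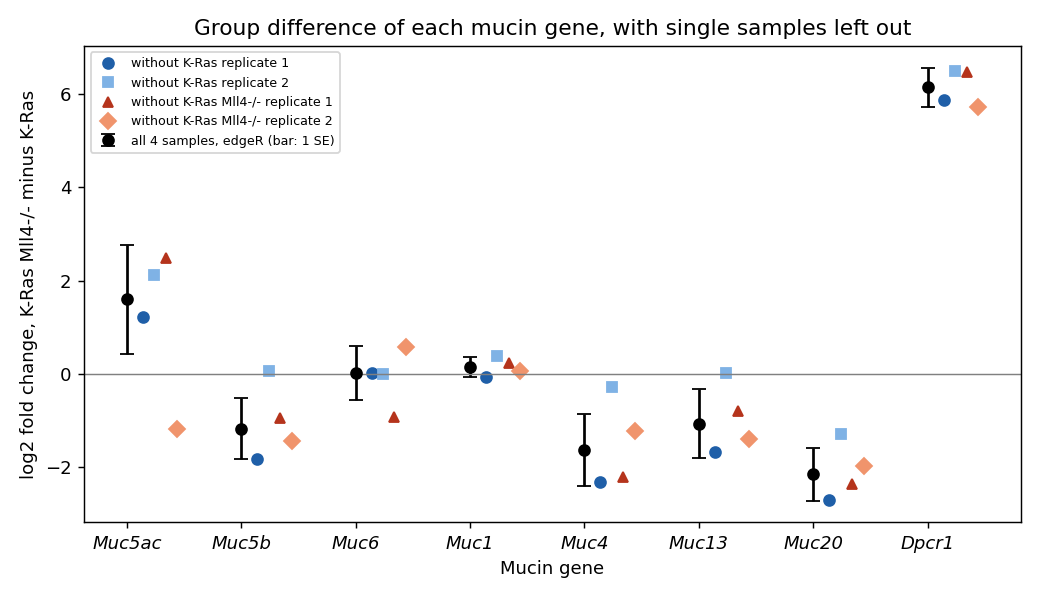
Log2 fold change of each tested mucin gene, K-Ras Mll4-/- minus K-Ras, from all 4 samples (black, bar of 1 SE) and with each sample left out (coloured). Dpcr1 stays between 5.72 and 6.49, and Muc4, Muc5b and Muc13 come to -0.27, 0.055 and 0.034 without K-Ras replicate 2.

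The gel-forming mucins form a cluster on chromosome 7 in the order Muc6, Muc2, Muc5ac and Muc5b, followed by Tollip. Values within this cluster had both signs. The log2 fold changes were 0.02 for Muc6, 1.84 (SE 0.48) for Muc2, 1.60 for Muc5ac and -1.17 for Muc5b. Muc2, the gel-forming mucin of the intestine, was at 0.654 and 1.05 CPM in the K-Ras samples, against 2.25 and 3.91 CPM in the K-Ras Mll4-/- samples, with no overlap (edgeR adjusted p = 0.174). Around all 9 listed mucins, 28 of the 37 nearest genes that are no members were tested. Of these, 8 were above and 11 below in both K-Ras Mll4-/- samples, beside 29.9% and 28.5% of all tested genes. EdgeR called 0, and 8 had an unadjusted p under 0.05, where 21.8% of all genes passed.

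Of those 8 neighbours, Thbs3, the thrombospondin gene near Muc1, differed by -1.75 on the log2 scale (SE 0.22), and Trim46 and Krtcap2, also beside Muc1, by -0.70 (SE 0.19) and 0.40 (SE 0.15). Heg1 and Kalrn, near Muc13, were at -0.93 (SE 0.21) and -0.92 (SE 0.21). Ano3, an anoctamin gene that overlaps Muc15, was at 2.97 (SE 0.77) with 1 to 29 reads. Tfrc and Muc2, given above, complete the 8.

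Further mucins, mucin-like sialomucins and the adhesion molecule Mcam made up a list written with the earlier results known. It held 20 symbols, of which 13 were listed and 10 tested. None was called by edgeR, with 1 higher (Muc2) and 1 lower (Mcam) at an unadjusted p under 0.05. DESeq2 called 1 higher (Muc2) and 0 lower. Over all genes, 21.8% passed at such a p and DESeq2 called 10.6%. The median log2 fold change was -0.12. On the log2 scale Mcam, an adhesion molecule of vessels, was at -0.56 (SE 0.21), and at -0.37 without K-Ras Mll4-/- replicate 2. Parm1 was at 0.86 (SE 0.94), and at -0.68 without that same sample. The vascular sialomucins Podxl, Cd34 and Emcn were at 902, 386 and 192 CPM in K-Ras Mll4-/- and 1325, 504 and 168 CPM in K-Ras tumours, and for Podxl the groups did not overlap. The 7 endothelial markers, Emcn among them, summed to 4784 and 4753 CPM in the K-Ras samples and 3397 and 2655 CPM in the K-Ras Mll4-/- samples. Of these 7, 5 were lower in both K-Ras Mll4-/- samples, as were 28.5% of all tested genes. DESeq2 called those 5 lower, edgeR called 0, and the median was -0.74. The part of endothelial cells in the sialomucin values was not tested. Cd164 was at 240 against 198 CPM, Ovgp1 at 6.20 against 7.08, Muc19 at 1.51 against 1.70 and Prg4 at 1.52 against 1.59 CPM. Mucl1 and Prol1 had 0 reads in every sample.

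The enzymes that build mucin-type O-glycans, which start with the GALNT transferases and are extended by C1galt1 and the GCNT branching enzymes, had mostly higher values in K-Ras Mll4-/- tumours. Of 23 tested, edgeR called none, but 12 were higher and 2 lower at an unadjusted p under 0.05, and DESeq2 called 9 higher and 0 lower. Among all genes 21.8% had such a p, and DESeq2 called 10.6%. In 16 of the 23 both K-Ras Mll4-/- samples were above both K-Ras samples, as in 29.9% of all tested genes. Their median log2 difference was 0.98, beside -0.01 over all tested genes. Without K-Ras replicate 2 the counts at an unadjusted p under 0.05 were 13 higher and 1 lower, with a median of 0.70. Cell type markers differed alongside these enzymes. The gastric markers had a median log2 difference of 3.97 over 8 tested genes. Most stromal markers were lower, with a median of -0.74 over the 7 endothelial and -1.06 over the 7 fibroblast markers. Emcn and Lum, at 0.19 each, went the other way. Of the fibroblast markers 6 were lower in both K-Ras Mll4-/- samples, as were 28.5% of all tested genes, and DESeq2 called 1 lower. Without K-Ras replicate 1 the fibroblast markers ranged from -1.01 (Pdgfra) to -0.12 (Lum), with Col1a1 at -0.23. Fibroblast markers summed to 2468 and 1124 CPM in the K-Ras samples and 838 and 853 CPM in the K-Ras Mll4-/- samples. The part of cell composition in the O-glycan values was not tested.

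Gcnt3, the mucin-type core 2 and core 4 branching enzyme, had the largest difference of this list. It was at 1.28 and 2.35 CPM in the K-Ras samples, against 111 and 129 CPM in the K-Ras Mll4-/- samples, or 6.03 on the log2 scale (SE 0.35, adjusted p = 0.0603 by edgeR). Chst4, a sulphotransferase that acts on mucin O-glycans, was at 0.131 and 0.470 CPM against 10.2 and 18.6 CPM (log2 difference 5.53, SE 0.69, adjusted p = 0.128 by edgeR). Fut2, the fucosyltransferase of secretor antigens, was at 8.57 and 13.9 CPM against 44.5 and 133 CPM (log2 difference 2.98, SE 0.62, adjusted p = 0.156 by edgeR). For all 3 genes the groups did not overlap, as for Dpcr1 and for 58.3% of all tested genes. They were named for the largest differences of the list. Chst4 had 4 and 17 reads in the K-Ras samples, the first near the floor of 3 reads. Without K-Ras Mll4-/- replicate 2 the Fut2 difference was 1.98.

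**Figure D5:**
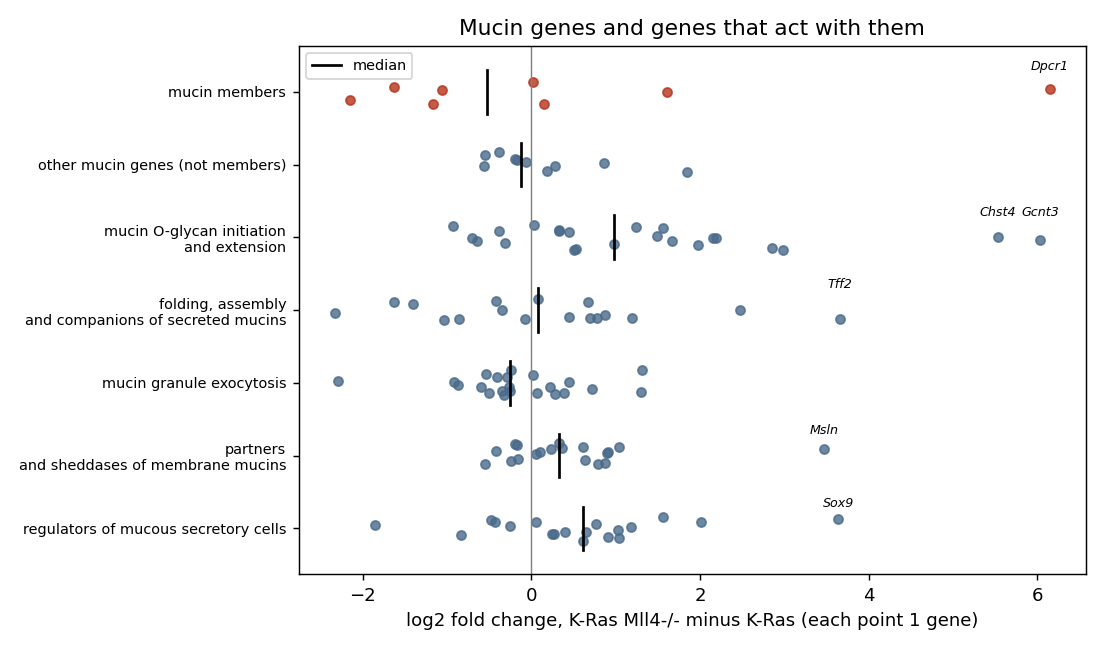
Log2 fold change, K-Ras Mll4-/- minus K-Ras, of the 8 tested mucin genes and of 6 lists of genes that act with mucins, 1 point per gene and a black line at each median. The O-glycan list is centred at 0.98, with Gcnt3 at 6.03 and Chst4 at 5.53 near Dpcr1 at 6.15.

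Genes for folding, assembly and partners of secreted mucins showed no common direction. Of 17 tested, edgeR called none, with 7 higher and 3 lower at an unadjusted p under 0.05, and DESeq2 called 4 higher and 2 lower. Over all genes, 21.8% had such a p and DESeq2 called 10.6%. The list's median log2 difference was 0.08. Tff2, the trefoil peptide secreted with gastric mucus, was at 0.981 and 2.93 CPM in the K-Ras samples, against 9.83 and 40.1 CPM in the K-Ras Mll4-/- samples (log2 difference 3.66, SE 0.92, adjusted p = 0.171 by edgeR). Agr3, a protein disulphide isomerase of ciliated airway cells, and Pigr, the polymeric immunoglobulin receptor, were at -2.33 (SE 0.80) and -1.63 (SE 0.54) on the log2 scale. Both were highest in K-Ras replicate 2, Agr3 at 3.90 CPM against 0.948 CPM in K-Ras replicate 1, and Pigr at 107 against 42.4 CPM. Without K-Ras replicate 2 the differences were -0.99 for Agr3 and -0.83 for Pigr. The Tff2 difference was 2.32 without K-Ras Mll4-/- replicate 2.

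The machinery of mucin granule exocytosis also went both ways. Of 22 tested genes, edgeR called none, with 5 higher and 4 lower at an unadjusted p under 0.05, and DESeq2 called 2 higher and 3 lower. The shares over all genes were 21.8% for such a p and 10.6% for DESeq2. On the log2 scale the median was -0.26. Rab27b and Sytl2, a granule GTPase and its effector, were at 1.30 (SE 0.18) and 1.31 (SE 0.20). Syt2, the calcium sensor of regulated airway mucin release, was at 2.22 and 2.19 CPM in the K-Ras samples, against 0.495 and 0.403 CPM in the K-Ras Mll4-/- samples (log2 difference -2.29, SE 0.39, adjusted p = 0.147 by edgeR).

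Among partners and sheddases of membrane mucins, 19 were tested, with 0 called by edgeR. At an unadjusted p under 0.05, 5 were higher and 0 lower, where 21.8% of all genes passed. DESeq2 called 4 higher and 0 lower, and 10.6% of all genes. The median over these genes, in log2 units, was 0.32. Msln, the mesothelin gene, whose product binds Muc16, was at 13.8 and 17.0 CPM in the K-Ras samples, against 120 and 221 CPM in the K-Ras Mll4-/- samples (log2 difference 3.47, SE 0.36, adjusted p = 0.116 by edgeR). The 6 other mesothelial markers summed to 10.7 and 7.61 CPM in the K-Ras samples and 6.25 and 4.50 CPM in the K-Ras Mll4-/- samples. Among them Upk1b was at 2.20 to 6.93 CPM (log2 difference -1.18, SE 0.36) and Gpm6a at 1.69 to 2.58 CPM (log2 difference -0.062, SE 0.40). The part of mesothelial cells in the Msln value was not tested. Lgals3, a galectin that binds mucin glycans, and the kinase gene Src were at 1.04 (SE 0.45) and 0.90 (SE 0.27) in log2 units. Without K-Ras Mll4-/- replicate 2 these were 0.65 and 0.52, and Lgals3 was at 0.58 without K-Ras replicate 2. Erbb2 was at 74.1 and 64.5 CPM in the K-Ras and K-Ras Mll4-/- groups, which overlapped, and Met at 114 and 212 CPM, with no overlap.

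Transcription factors known from mucous cells and foregut epithelium had 19 tested genes. EdgeR called none, with 7 higher and 1 lower at an unadjusted p under 0.05, and DESeq2 called 6 higher and 1 lower. For all genes the shares were 21.8% at such a p and 10.6% by DESeq2. The median of these log2 differences was 0.61, or 1.15 without K-Ras replicate 2. Sox9 was at 4.02 and 2.96 CPM in the K-Ras samples, against 40.9 and 46.1 CPM in the K-Ras Mll4-/- samples (log2 difference 3.64, SE 0.23, adjusted p = 0.0603 by edgeR). Hnf4a, a factor of gut epithelium, and Klf5 were at 2.02 (SE 0.54) and 1.56 (SE 0.45). Spdef, the factor that drives goblet-cell differentiation, was at 0.916 and 1.41 CPM in the K-Ras samples, against 0.533 and 0.124 CPM in the K-Ras Mll4-/- samples. Nkx2-1, the lung lineage factor, was at 45.7 and 62.7 CPM against 47.8 and 64.9 CPM, with overlapping groups.

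Goblet and gastric marker lists gave different pictures. The 8 listed goblet and mucous markers summed to 12.9 and 14.7 CPM in K-Ras and 21.6 and 50.6 CPM in K-Ras Mll4-/- tumours, with a median log2 fold change of -0.07 over the 7 tested, and none was at 0 in all samples. Most of that difference was Tff2, and without it the sums were 11.9 and 11.8 CPM against 11.8 and 10.5 CPM. Clca1 and Agr2, markers of goblet cells, overlapped between groups at 1.27 to 6.48 CPM and 0.818 to 5.81 CPM. The 10 gastric epithelial markers summed to 322 and 410 CPM in K-Ras and 1467 and 1806 CPM in K-Ras Mll4-/- tumours. Cldn18, a claudin gene that alveolar epithelium also expresses, made up 290 and 385 CPM of the K-Ras sums and 709 and 843 CPM of the others. Without it the sums were 32.2 and 25.7 CPM against 758 and 963 CPM. All 8 tested were higher in both K-Ras Mll4-/- samples, as were 29.9% of all tested genes. Of these 8, edgeR called 1 (Gkn2) and DESeq2 called 7, beside 0.0375% and 10.6% of all genes. This list was chosen with the gastrokine result already known, so its direction is not independent evidence. Gkn1 had 0 reads in both K-Ras samples. Ctse, an aspartic protease of gastric epithelium, was at 22.8 and 9.93 CPM in K-Ras against 374 and 475 CPM in K-Ras Mll4-/- tumours. The part of such cells in the Dpcr1 value was not tested.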

How the data were processed

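The deposited files hold raw read counts per gene symbol, 1 file per sample, in the layout of HTSeq. Per the submitters' processing notes the tools were CASAVA 1.4, STAR and HTSeq and the build was mm9. Their roles, the annotation and the strand setting are not given in the sources used here. Reads outside genes, in overlapping genes or with several alignments (32.2% to 37.4% of aligned reads) were tallied apart in the deposited counts and stayed out of library sizes.

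Groups came from the sample titles. Counts were fitted across all genes with edgeR 4.0.16 in R 4.3.3 (filterByExpr, TMM scaling, robust quasi-likelihood test, Benjamini-Hochberg adjustment, threshold 0.05), and the SE of a log2 fold change is its size over the square root of F. DESeq2 1.42.0 and limma-voom (limma 3.58.1) were alternatives, with other scalings, filters, a replicate block and single samples left out. Levels between genes used CPM per kilobase of the longest GENCODE M21 protein-coding transcript, with the median length of all transcripts as an alternative. Samples of a group differed beyond sampling noise of reads (chi-square per gene 47.3 and 122), so each was counted as 1 sample. Such a difference does not show whether they came from separate mice.

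The members, lists and alternatives were chosen with earlier results of these data known, and the list sums without a dominant gene and the left-out-sample values of list genes were added after the data were seen. Named genes were all members, further mucins with at least 10 reads, called genes or else the 3 largest differences at 1 CPM or more per list, and neighbours at an unadjusted p under 0.05; others say so, or are markers and partners named beside them. Proteins were not analysed here.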

Additional observations from a re-analysis of the deposited data

How the results depend on the processing

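Against 6 genes called by the edgeR quasi-likelihood test, all higher, 44 were called with every gene of at least 1 read, 217 with the replicate number as a block, 1632 by DESeq2, 1503 by the likelihood ratio test and 0 by limma-voom. Leaving out single samples gave 0 to 528, the highest without K-Ras replicate 1. Of the mucin genes, 0 were called, against 1 with every gene of at least 1 read, 1 with the replicate block (Dpcr1 in both cases), 2 by DESeq2, 2 by the likelihood ratio test and 0 to 2 with single samples left out. The replicate numbers share no stated origin, and deviations of same-numbered samples correlated at 0.21 across genes. The mucins' median log2 fold change ranged from -1.20 to 0.045 with single samples left out.

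Signs reversed for Muc6 with upper-quartile scaling (-0.041), total counts (-0.030), the replicate block (-0.14) and limma-voom (-0.21), and with single samples left out it ranged from -0.91 to 0.59. The corresponding ranges were -1.17 to 2.50 for Muc5ac, -0.060 to 0.39 for Muc1, -1.82 to 0.055 for Muc5b and -1.66 to 0.034 for Muc13. The log2 ratio of summed alveolar type 2 markers turned to -0.022 with total counts. The cause was not tested. Fits that leave a group with 1 sample assume that it varies like the other group. With the median transcript length, Muc1 was at 626 and 696 CPM per kilobase in K-Ras and K-Ras Mll4-/- tumours. Mucins near 0 reads are limited by depth.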
